A study of Rattus norvegicus with 172 samples.

Results

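The comparison is between spinal cords that received an empty chitosan tube and cords left untreated after the same operation, in the segment just rostral to the gap on day 20. Its members are 6 arrays of the 172 in the series, chosen by their titles: 3 tube alone arrays and 3 lesion control arrays. All animals were female Wistar rats of 2 months and 250 to 300 g, and all had the cord cut at T7-8 with a 5 mm piece taken out. In the tube alone group an empty chitosan tube of 5 mm was placed in the gap, and in the lesion control group nothing was placed there. Each array holds RNA pooled from the 5 mm rostral segments of 4 animals, dissected with dura and meninges, on the Affymetrix Rat Genome 230 2.0 chip. The NT-3 tube group, named beside some values, had the same tube loaded with NT-3 (neurotrophin-3), and 3 arrays of normal cord give the uninjured level.

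After transection, blood-borne cells enter the stump, microglia and astrocytes react, and fibroblasts from the meninges and vessel walls deposit a collagen-rich scar that meets the glial border. Chitosan is a polysaccharide derived from chitin that is used as an implant material. In a bulk segment, fewer cells of a type and less RNA per cell cannot be told apart.

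Values are log2 levels, so a difference of 1 is a 2-fold change on the scale of the authors' normalization. Of 11553 genes tested, 30 passed an adjusted p of 0.05 in limma, which is 0.26% of them. Of these, 8 rose in tube alone cords (0.0692% of genes tested) and 22 fell (0.19%). A second quantile normalization gave 8 and 10, and 15 of the 30 calls were kept. The groups did not overlap for any of the 30 genes, and the absolute differences lay between 0.33 and 1.23. Over all genes tested, groups were apart for 8.89% with tube alone higher and for 19.3% with tube alone lower. The 30 genes were called on these same values, so their separation adds no support. Without adjustment 1595 genes (13.8%) had p under 0.05, 421 of them higher and 1174 lower in tube alone cords. The median difference over all genes tested was -0.05, and 7268 genes had a lower mean in tube alone cords against 4248 with a higher one. This median was -0.005 after a second quantile normalization and -0.028 without tube alone array 1, so the excess of lower means depended on the processing.

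Both groups had high levels of 2 cord markers, chosen after their values were seen. The astrocyte gene Gfap averaged 14.15 in tube alone cords and 14.22 in lesion control cords, and the myelin gene Mbp averaged 14.60 in each group. Of 16 central myelin genes tested, however, 14 had the lower mean in tube alone cords, with a median of -0.21. Skeletal muscle genes were higher there, with a median of 0.95 over 15 genes. Tube alone array 1 and lesion control array 3 stood apart. Across genes, tube alone arrays 2 and 3 correlated at 0.997 and lesion control arrays 1 and 2 at 0.996, whereas tube alone array 1 and lesion control array 3 reached at most 0.989 with any of the 6. The mean of 8 neutrophil genes relative to normal cord was 0.60, 1.67 and 1.73 on the tube alone arrays, against 0.63, 1.05 and 3.10 on the lesion control arrays. The mean of 4 erythroid genes was -0.36, 0.10 and 0.19 on the tube alone arrays, against -0.53, -0.33 and 2.28 on the lesion control arrays. Lesion control array 3 was thus the highest for both lists, and their part in the results was not tested. Leaving out tube alone array 1 left 1 of the 30 calls, and leaving out lesion control array 3 left 2. Without both arrays 1 call was left. Among the 30 genes, Ccl17 alone passed in all 6 fits that left out 1 array. Fbxw7 and Simc1 passed in 4 of the 6, and 9 genes passed in none, among them C6, Inmt and Angptl2.

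Among the 30 called genes Ccl17 had the largest fall. It encodes a chemokine that binds the receptor CCR4 and attracts type 2 helper and regulatory T cells. Its log2 levels were 7.19, 7.13 and 6.99 in tube alone cords, against 7.96, 8.54 and 7.99 in lesion control cords. The highest tube alone array thus lay well below the lowest lesion control array. The difference was -1.06 ± 0.17 (SE, n = 3 each), a 2.08-fold lower level with an adjusted p of 0.000738 in limma. Normal cord averaged 6.42 ± 0.22 (SD, n = 3), so both injured groups were above it, by 0.68 in tube alone and 1.74 in lesion control cords. When 1 array was left out, the difference lay between -1.16 and -0.87 and the adjusted p between 0.00111 and 0.0316. It passed under each other setting run except the fit of the 6 arrays with the replicate number as a block.

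The Ccl17 level of the lesion controls peaked on this day. Among the 7 days of rostral lesion control arrays it averaged 8.16 ± 0.33 on day 20, against 6.77 on day 10, 6.85 on day 30 and 6.25 to 6.56 on the other days. Tube alone cords also had their highest rostral mean on day 20, at 7.10 ± 0.10, with 6.56 on day 10 and 6.72 on day 30. The tube alone minus lesion control difference was -0.21 on day 10 and -0.13 on day 30. The change in that difference from the mean of days 10 and 30 to day 20 was -0.89, with an adjusted p of 0.357 in limma. In the caudal segment on day 20 Ccl17 averaged 6.72 in tube alone cords and 6.97 in lesion control cords. With NT-3 in the tube, the rostral mean was 6.86 ± 0.34, and Ccl17 was the 1 gene called between the NT-3 tube and the same lesion control arrays (-1.30, adjusted p = 4.32e-06 in limma).

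The promoter of Ccl17 is shown because this gene alone kept its call in all 6 fits that left out 1 array. The 250 bases before its start, chr19:10209896-10210145 on the minus strand of GRCr8 (RefSeq), were searched on both strands for TTCNNNNGAA, the palindrome with 4 free bases that STAT6 binds. Capitals mark the 1 match, from 68 to 59 bases before the start.
Ccl17: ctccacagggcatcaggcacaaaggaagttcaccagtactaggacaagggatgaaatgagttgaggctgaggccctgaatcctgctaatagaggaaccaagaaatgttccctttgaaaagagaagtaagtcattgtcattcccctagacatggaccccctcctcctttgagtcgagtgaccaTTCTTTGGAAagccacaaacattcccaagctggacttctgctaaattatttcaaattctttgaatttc
The palindrome was present in 6.25% of 33469 rat promoters of this length and in 1 of the 25 called genes whose promoter was at hand. The palindrome was not the only short pattern searched for in these promoters. The others matched in 0 to 15 of the same 25 called genes, none of them in Ccl17 and 1 of them in C6. The match shown thus did not come from a search for this palindrome alone. A match describes these letters and is not a site shown to be bound.

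Of the genes that rose, C6 and Ppic passed a 2-fold change. C6 is a terminal complement component that joins the membrane attack complex. It measured 7.01, 7.12 and 7.09 in tube alone cords, against 5.82, 5.90 and 5.80 in lesion control cords, a difference of 1.23 ± 0.28 (SE, n = 3 each) or 2.35-fold, with an adjusted p of 0.0341 in limma. The arrays of each group lay close together and far from the other group. Ppic, cyclophilin C, is a prolyl isomerase of the secretory pathway. Its levels were 11.27, 10.91 and 10.78 in tube alone cords, against 9.82, 9.67 and 9.91 in lesion control cords, a 2.28-fold higher level (1.19 ± 0.24, adjusted p = 0.0158 in limma). Normal cord averaged 6.72, so Ppic stood far above normal in both injured groups.

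Inmt, a methyltransferase of small indole amines, measured 9.20, 9.47 and 9.35 in tube alone cords, against 8.43, 8.57 and 8.57 in lesion control cords (0.82 ± 0.19, adjusted p = 0.0379 in limma). Angptl2, a secreted angiopoietin-like protein, measured 7.06, 7.05 and 7.05 in tube alone cords, against 6.42, 6.46 and 6.58 in lesion control cords (0.57 ± 0.13, adjusted p = 0.0447 in limma). Groups were separate for each of these genes. Rxra, the partner of many nuclear receptors, was higher by 0.43. Il15, a cytokine that sustains natural killer and memory T cells, was higher by 0.40. Ifnar1, a subunit of the type I interferon receptor, was higher by 0.41, but its 5 other probe sets differed by between -0.21 and 0.35. The next genes by unadjusted p, which did not pass, were Ptprv, Slc29a1, Glt8d2 and Tnmd, with differences of 0.52, 0.45, 0.73 and 0.82 and adjusted p from 0.0518 to 0.0545 in limma.

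Per3, a period gene of the circadian clock, also rose. It measured 8.66, 8.62 and 8.30 in tube alone cords, against 7.80, 7.87 and 7.86 in lesion control cords (0.68 ± 0.15, adjusted p = 0.0341 in limma). The normal cord mean of 7.97 lay between the groups. Per3 averaged 8.22 in tube alone cords and 8.12 in lesion control cords 10 days after the operation, and 8.39 in tube alone cords and 8.44 in lesion control cords after 30 days. The lesion control mean of 7.84 on day 20 was below its means of both neighbouring days. On day 90 Per3 differed again, by 0.78 (adjusted p = 0.000209 in limma), with 8.74 in tube alone cords and 7.96 in lesion control cords. On days 1, 3 and 60 its difference was -0.08, -0.41 and 0.21, and did not pass. On day 20 a second, dimmer Per3 probe set differed by 0.00. Per3 was the 1 called gene among 15 circadian clock genes tested, whose median difference was 0.06. Among genes of the list chosen after their values were seen, Per2 measured 8.68, 8.75 and 8.60 in tube alone cords, against 7.98, 8.41 and 8.38 in lesion control cords, and Npas2, a partner of the clock activator Bmal1, measured 7.20, 7.40 and 7.52, against 8.02, 7.84 and 7.62. These groups did not overlap, but neither gene passed, with adjusted p of 0.415 and 0.223 in limma. The labels used here give no hour of tissue collection, and its part in the Per3 difference was not tested.

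**Figure D1:**
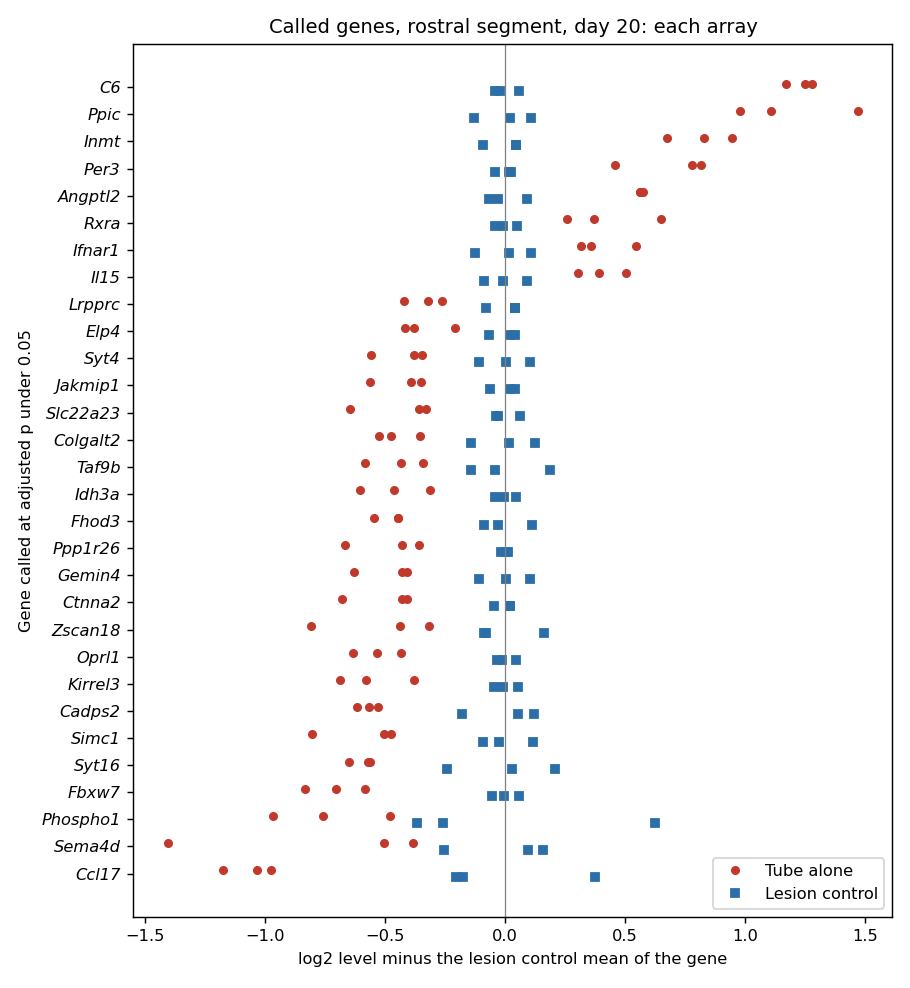
The 30 genes with an adjusted p under 0.05, ordered by their difference. Each point is 1 array, drawn as its log2 level minus the lesion control mean of that gene (tube alone as circles above, lesion control as squares below). No gene has overlapping groups, which held for 8.89% (tube alone higher) and 19.3% (lower) of all genes tested. Sema4d and Phospho1 owe much of their distance to 1 array.

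Of the genes that fell, Sema4d was next after Ccl17. It is a transmembrane semaphorin of oligodendrocytes that acts through plexin-B1 and can collapse growth cones. Its levels were 8.73, 9.63 and 9.75 in tube alone cords, against 10.23, 10.29 and 9.88 in lesion control cords (-0.76 ± 0.18, adjusted p = 0.0379 in limma). Tube alone array 1 was the low one, and without it the difference was -0.44. Sema4d was the 1 called member of 20 growth-inhibitory matrix and guidance genes tested, a list with a median of -0.07. Phospho1, a phosphatase known from bone mineralization, measured 5.69, 6.18 and 5.90 in tube alone cords, against 6.29, 6.40 and 7.28 in lesion control cords (-0.73 ± 0.17, adjusted p = 0.0401 in limma). Lesion control array 3 was its high one, and without it the difference was -0.42.

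Fbxw7 recognises substrates for a ubiquitin ligase. It measured 7.13, 7.38 and 7.26 in tube alone cords, against 7.91, 7.96 and 8.02 in lesion control cords (-0.71 ± 0.13, adjusted p = 0.00659 in limma), and its second probe set was lower by 0.49. Idh3a, chosen after its values were seen, is the catalytic subunit of a citric acid cycle dehydrogenase and measured 9.23, 9.37 and 9.52 in tube alone cords, against 9.83, 9.79 and 9.88 in lesion control cords (-0.46 ± 0.09, adjusted p = 0.00659 in limma). For neither gene did the groups overlap. When 1 array was left out, the Fbxw7 difference lay between -0.77 and -0.64 and that of Idh3a between -0.53 and -0.39. Fbxw7 then kept its call in 4 of 6 fits and Idh3a in 3, with adjusted p in limma up to 0.155 and 0.187, and both lost it without tube alone array 1. Cadps2, which primes dense-core vesicles for release, fell by 0.57 and had the values 6.98, 6.89 and 6.94 in tube alone cords, against 7.56, 7.33 and 7.63 in lesion control cords. Simc1, which binds SUMO-modified proteins, fell by 0.59.

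The other genes that fell by 0.49 or more were Syt16 of the synaptotagmin family (-0.59), Kirrel3, an adhesion molecule of synapses (-0.55), Oprl1, the nociceptin receptor (-0.53), the zinc finger gene Zscan18 (-0.52), Ctnna2, the neuronal alpha-catenin (-0.50), and Gemin4 of the SMN complex (-0.49). Syt16 was dim in both groups, at 4.90 in tube alone and 5.49 in lesion control cords, under the testing threshold of 6.55. Normal cord averaged 6.58. With the dim filter on the 2 groups compared Syt16 was not tested, and 29 of the 30 calls were kept. The remaining 9 genes that fell lay between -0.48 and -0.33. Of the 22 genes, 19 also had a lower mean in lesion control cords than in normal cord. The share of all genes tested with a lower mean was not counted, and their median difference of lesion control from normal cord was 0.03. Ctnna2 averaged 8.72 in tube alone cords, 9.23 in lesion control cords and 10.07 in normal cord, and Oprl1 averaged 6.98, 7.51 and 8.43 in the same groups. The other, dimmer probe sets of Oprl1 differed by -0.12 and -0.14. Over the 30 called genes, 9 of 14 other probe sets lay in the direction of the one used.

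On the neighbouring days none of 11553 genes passed in the rostral segment, either on day 10 or on day 30 (limma, with 604 and 649 genes at an unadjusted p under 0.05). Of the 30 day 20 genes, 19 had the same sign on day 10 and 28 on day 30, with absolute differences under 0.2 for 20 and 18 of them. The shares of all genes tested that did so were not counted. A contrast of the day 20 difference with the mean of the differences on days 10 and 30 called 0 of 11553 genes in limma (lowest adjusted p = 0.357), with 764 (6.61%) at an unadjusted p under 0.05, so no gene was shown to differ particularly on day 20. Day 10 has 2 tube alone arrays. Ppic of tube alone cords averaged 10.90 on day 10 and 10.88 on day 30, against 10.35 and 10.38 in lesion control cords. On the later days 60 and 90 its differences were 1.00 and 1.36, with adjusted p of 0.003 and 8.27e-05 in limma. Inmt differed by 0.90 and 0.83 on those days, with adjusted p of 0.000803 and 0.00125 in limma. The tube alone arrays of days 1 and 60 also stood apart at the MHC class I gene RT1-CE10, chosen after its values were seen. It averaged 10.42 ± 0.52 in tube alone cords and 7.38 ± 0.10 in lesion control cords on day 60 (SD, n = 3 each), and differed by 4.11 on day 1. On day 20 it averaged 6.96 in tube alone cords and 7.12 in lesion control cords, with overlapping groups. Day 30 stood apart in both groups, at 10.96 in tube alone cords and 10.95 in lesion control cords. On day 10 the means were 6.86 and 7.07. The part of RT1-CE10 in the differences of days 1 and 60, or in the comparisons of day 20 with day 30, was not tested.

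**Figure D2:**
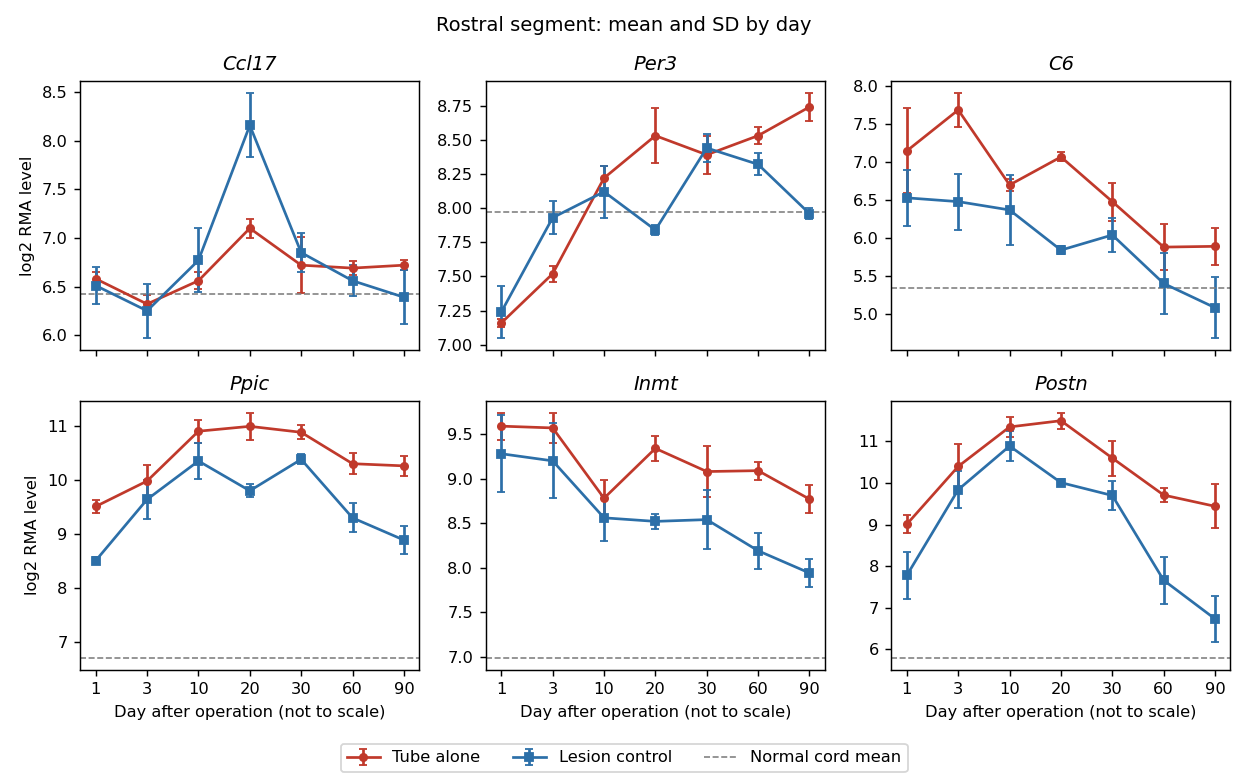
Rostral log2 levels by day after the operation, for 5 genes called on day 20 and for Postn, which was not. Points are means and bars are SDs of 3 arrays, or 2 for tube alone on day 10. The dashed line is the normal cord mean. The lesion control line of Ccl17 peaks at 8.16 on day 20, and the lesion control line of Per3 dips to 7.84.

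Caudal to the gap on day 20, the same groups differed at 91 genes higher in tube alone cords (0.785% of 11590 tested) and 8 lower (0.069%). Of the 30 rostral genes 28 had the same sign caudally, and 5 were called there too: C6, Ppic, Inmt, Per3 and Angptl2, all higher. The share of all genes with the same sign in both segments was not counted. C6 differed by 1.23 in each segment, with caudal means of 6.86 in tube alone cords and 5.63 in lesion control cords. Inmt differed by 1.28 caudally (adjusted p = 7.22e-05 in limma) and Ppic by 1.15 (adjusted p = 0.011 in limma). A contrast of the rostral with the caudal difference called 0 of 11590 genes in limma (lowest adjusted p = 0.844), with 309 (2.67%) at an unadjusted p under 0.05. The labels used here do not say whether both segments came from the same animals.

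Fibroblast and fibrillar matrix genes had higher means in tube alone cords, although none passed the test. Of 26 tested, 25 had the higher mean in tube alone cords, and for 23 the groups did not overlap with tube alone higher, which held for 8.89% of all genes tested. The list's median difference was 0.64, against -0.05 over all genes. Col5a1, a fibril-initiating collagen chain, had the smallest p of the list: 9.63, 9.73 and 9.91 in tube alone cords, against 8.71, 8.91 and 9.15 in lesion control cords (0.83 ± 0.23, adjusted p = 0.0853 in limma). Tnn, tenascin-N, measured 6.53, 8.02 and 7.26 in tube alone cords, against 4.66, 5.71 and 5.26 in lesion control cords (2.06 ± 0.65, adjusted p = 0.13 in limma). The spread within each group exceeded 1 for Tnn, yet the groups were separate.

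Postn and Col1a1 were chosen after their values were seen. Postn, periostin, a matrix protein of scars, measured 11.31, 11.52 and 11.68 in tube alone cords, against 9.92, 10.08 and 10.04 in lesion control cords, with a normal cord mean of 5.80 (1.49 ± 0.48, adjusted p = 0.132 in limma). Col1a1, the main chain of type I collagen, measured 12.08, 12.44 and 12.46 in tube alone cords, against 11.15, 11.17 and 11.66 in lesion control cords. These genes were raised in both groups over normal cord, the list's median being 3.09 above it in tube alone cords and 2.40 in lesion control cords. In NT-3 tube cords the list's median difference from the same lesion control arrays was -0.11, and Postn averaged 8.81 ± 0.57 (SD, n = 3) there.

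The matrix calls depended on which arrays gave the spread. With the spread taken from all rostral arrays, the median SE over genes was 0.119. When only the 6 arrays entered the fit the median SE was 0.085, 263 of 10971 genes were called, 133 higher and 130 lower, and 16 of the 26 matrix genes were among the higher ones. On other days the rostral list median was 0.30 on day 1, 0.10 on day 3, 0.30 on day 10, 0.39 on day 30, 1.12 on day 60 and 0.98 on day 90. Caudally on day 20 it was 1.03, and 11 of the 26 genes were called higher, Postn among them (2.57, adjusted p = 0.00115 in limma). Leaving out 1 array moved the rostral median only between 0.60 and 0.71, and it was 0.73 without the pair that stood apart.

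**Figure D3:**
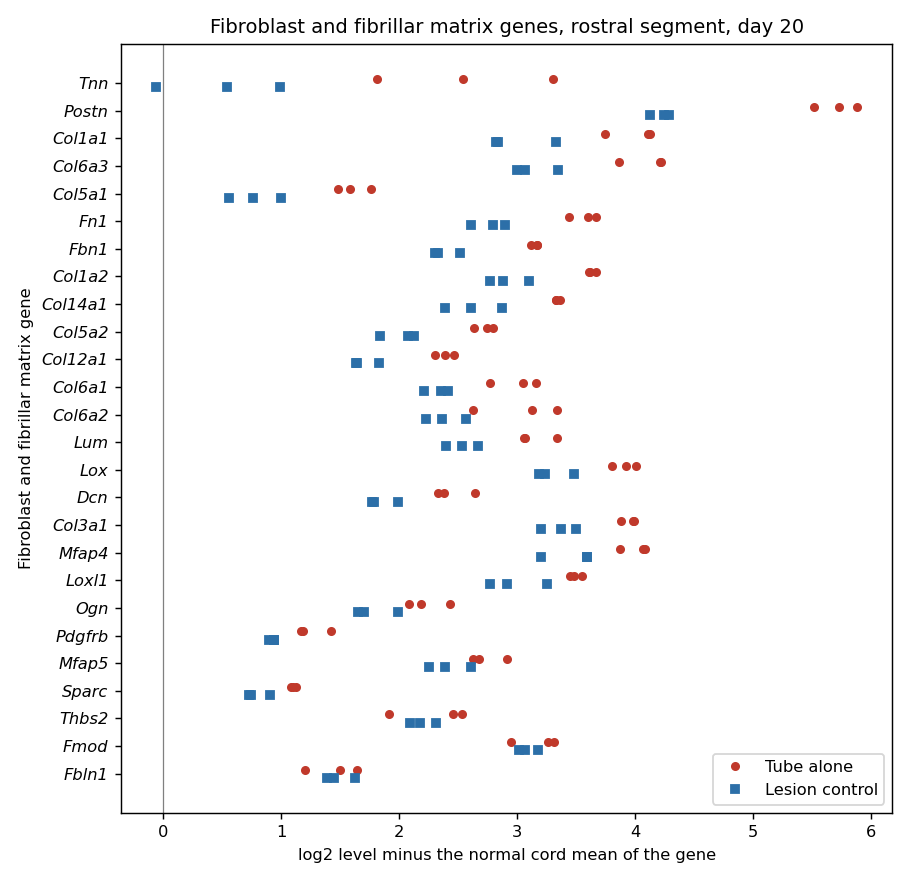
The 26 fibroblast and fibrillar matrix genes on day 20 in the rostral segment. Each point is 1 array, drawn as its log2 level minus the normal cord mean of that gene (tube alone as circles, lesion control as squares). The groups are separate for 23 genes and overlap for Thbs2, Fmod and Fbln1.

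Genes of the neighbouring matrix lists lay the same way. All 14 basement membrane genes tested had the higher mean in tube alone cords, with a median of 0.34 and 7 of them without overlap (8.89% of all genes). Col4a1, a chain of the basement membrane's collagen network, measured 9.36, 9.67 and 9.58 in tube alone cords, against 8.56, 8.78 and 9.16 in lesion control cords (adjusted p = 0.183 in limma). Of 14 matrix protease and inhibitor genes 13 had the higher mean, with a median of 0.32. Mmp12, the macrophage elastase, measured 11.29, 11.35 and 11.28 in tube alone cords, against 9.27, 10.46 and 9.58 in lesion control cords (1.54 ± 0.64, adjusted p = 0.261 in limma). No gene of either list passed.

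Skeletal muscle genes lay in the same direction as the matrix genes. Of 15 tested, 13 had the higher mean in tube alone cords and the median was 0.95. Relative to normal cord the list's mean was 1.28, 1.16 and 0.78 on the tube alone arrays, against -0.10, 0.22 and 0.69 on the lesion control arrays, and 1.48, 1.69 and -0.19 on the NT-3 tube arrays. Myh2, a fast muscle myosin, measured 7.87, 7.18 and 6.44 in tube alone cords, against 4.26, 5.16 and 5.63 in lesion control cords (adjusted p = 0.195 in limma). In the caudal segment, where the matrix median was 1.03, the muscle median was -0.04. The 13 meningeal genes tested had a median of 0.13 rostrally and 0.78 caudally. The part of muscle or meningeal tissue in the rostral matrix values was not tested.

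Neuron genes lay lower in tube alone cords. All 19 tested had the lower mean, with a median of -0.27, and for 10 the groups did not overlap, which held in that direction for 19.3% of all genes. Eno2, the neuronal enolase, measured 11.39, 11.71 and 11.67 in tube alone cords, against 12.12, 12.08 and 12.02 in lesion control cords (-0.48 ± 0.16, adjusted p = 0.148 in limma). Gap43, a growth cone protein, averaged 12.15 in tube alone cords and 12.47 in lesion control cords. The 16 synaptic transmission genes and the 9 motor neuron and cholinergic genes each had a median of -0.31. No member of the 3 lists passed. On days 10 and 30 the neuron median was -0.27 and -0.21.

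The 18 cholesterol synthesis genes all had the lower mean in tube alone cords, with a median of -0.23 and 12 genes without overlap (19.3% of all genes in that direction). Fdft1, squalene synthase, measured 9.50, 9.48 and 9.46 in tube alone cords, against 9.83, 9.81 and 9.89 in lesion control cords (-0.36 ± 0.10, adjusted p = 0.0863 in limma). None of the 18 passed. The injured cords were lower than normal cord for this list, by a median of -1.30 in tube alone and -1.12 in lesion control cords. Central myelin genes had a median of -0.21 over 16 genes, and Cnp averaged 13.24 in tube alone cords and 13.50 in lesion control cords (adjusted p = 0.131 in limma).

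**Figure D4:**
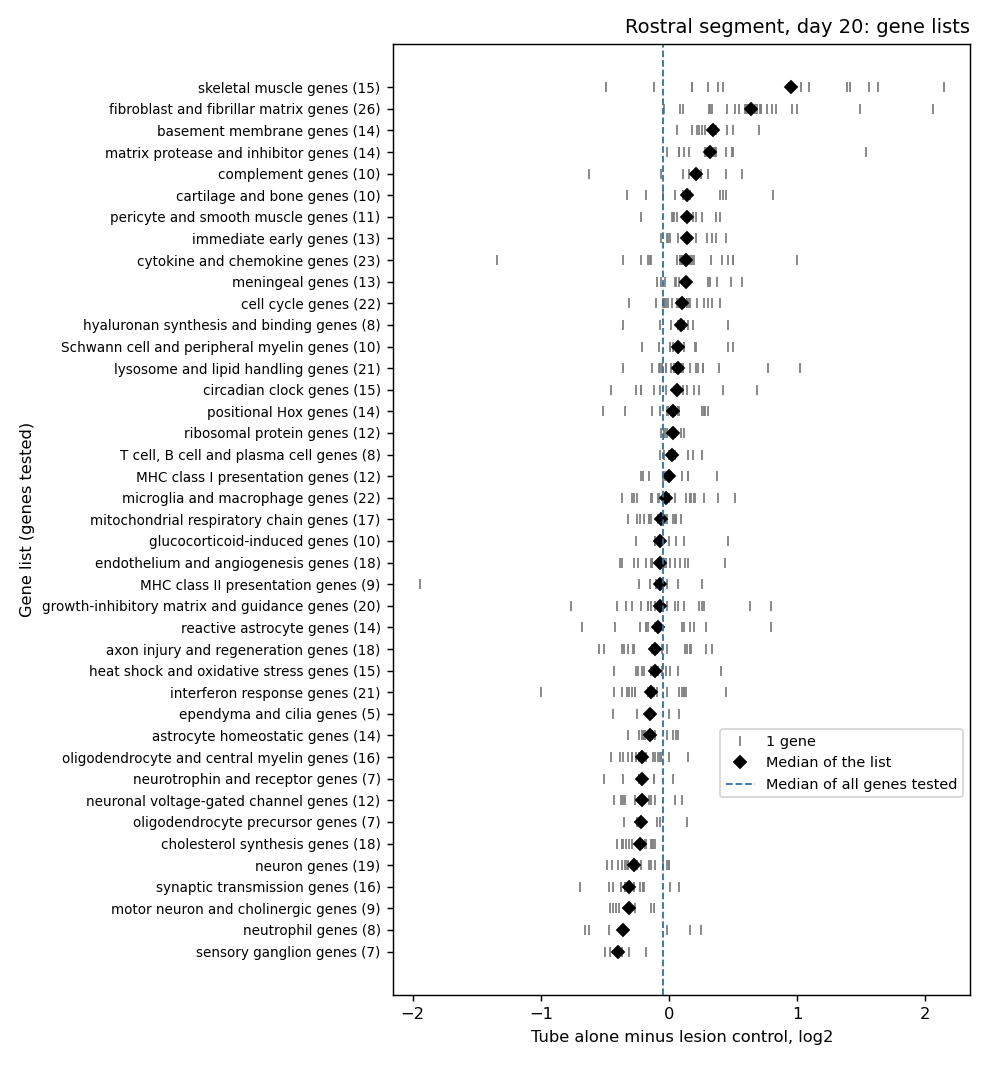
Tube alone minus lesion control differences in log2, rostral, day 20, for the lists with 5 or more genes tested. Ticks are genes, diamonds are list medians, and the dashed line is the median of all 11553 genes tested (-0.05). Skeletal muscle (0.95) and fibroblast matrix (0.64) lie farthest to the right.

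No gene of the microglia, neutrophil, MHC, interferon, complement or cytokine lists passed, while the called genes C6 and Ccl17 are in none of them. The 22 microglia and macrophage genes had a median of -0.02, with 10 higher and 12 lower means, while both groups stood far above normal cord, by 2.36 in tube alone and 2.48 in lesion control cords. The 12 MHC class I presentation genes had a median of 0.00 and no call. Tap1, the peptide transporter, averaged 7.40 in tube alone cords and 7.62 in lesion control cords, and RT1-CE12 averaged 10.75 in tube alone cords and 10.60 in lesion control cords. The 9 MHC class II genes had a median of -0.07. Among them RT1-Bb, a class II beta chain, measured 5.35, 7.53 and 7.69 in tube alone cords, against 8.31, 9.51 and 8.59 in lesion control cords (-1.95 ± 0.83, adjusted p = 0.27 in limma), without overlap. The difference was -1.19 without tube alone array 1 and -0.72 as the mean of all its probe sets. The 21 interferon response genes had a median of -0.14, and Rsad2, an antiviral enzyme, measured 9.37, 9.49 and 9.66 in tube alone cords, against 9.58, 10.58 and 11.35 in lesion control cords (adjusted p = 0.226 in limma), with overlapping groups. The 8 neutrophil genes had a median of -0.36, which was 0.60 without lesion control array 3 and between -0.81 and 0.11 without any 1 of the other arrays.

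Of 10 complement genes 8 had the higher mean, with a median of 0.21 and 5 of them without overlap (8.89% of all genes), yet C3, the central component, measured 10.34, 10.33 and 10.42 in tube alone cords, against 11.34, 10.99 and 10.64 in lesion control cords (-0.63 ± 0.22, adjusted p = 0.18 in limma). Of 23 cytokine and chemokine genes 17 had the higher mean, with a median of 0.13. Ccl21, which guides lymphocytes and dendritic cells, measured 9.26, 8.96 and 8.50 in tube alone cords, against 7.51, 7.67 and 8.54 in lesion control cords (1.00 ± 0.40, adjusted p = 0.243 in limma). Caudally Ccl21 differed by 1.57 and did not pass either (adjusted p = 0.0784 in limma). Cxcl13, which attracts B cells, measured 8.57, 8.26 and 8.06 in tube alone cords, against 10.80, 8.98 and 9.14 in lesion control cords (-1.34 ± 0.51, adjusted p = 0.207 in limma). Lesion control array 1 was the high one, and without it the difference was -0.76. The caudal Cxcl13 difference on the same day was -2.93 with an adjusted p of 0.000767 in limma.

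Of 7 neurotrophin and receptor genes tested 6 had the lower mean in tube alone cords, with a median of -0.21. Gfra1, the GDNF co-receptor, measured 8.73, 8.84 and 8.98 in tube alone cords, against 9.31, 9.24 and 9.08 in lesion control cords (-0.36 ± 0.09, adjusted p = 0.0698 in limma). Bdnf, which supports neuron survival and plasticity, measured 6.90, 6.21 and 6.28 in tube alone cords, against 7.16, 6.86 and 6.89 in lesion control cords, with overlapping groups and an adjusted p of 0.139 in limma. No gene of this list passed.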

How the data were processed

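The authors' deposited table holds log2 values of 31099 probe sets on 172 arrays, made with Affymetrix Expression Console and RMA per the submitters' processing notes. Their versions: not given in the sources used here. RMA equalises arrays and compresses dim signals. The values were used as they stand, with array medians from 7.10 to 7.25. Of the probe sets 20832 carry 1 gene symbol, 436 several, and 9831 are unnamed here. They gave 14218 genes, each taken from the probe set of highest cord average (4526 genes had several). Genes were tested where 1 group mean reached 6.55, the 40th percentile of cord array values. limma 3.58.1 in R 4.3.3 (lmFit, contrasts, eBayes) fitted 65 rostral and normal arrays with 1 mean per arm and day, and caudal arrays were added for the caudal contrasts. P-values were adjusted by Benjamini and Hochberg over all genes tested, with a threshold of 0.05, and the fit was tested on simulated data. Since every array is a pool, p-values reflect variation from pool to pool, and precision is limited by how few arrays there are. Scan dates were not used here.

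The comparison and the 43 gene lists (634 of 725 entries matched) were chosen with earlier results of these data known. Genes named are the top 12 called rises and top 12 called falls without overlap, symbols starting LOC or RGD aside, filled up by unadjusted p, and up to 4 called members of each list by size or, with none called, the 2 of smallest unadjusted p. Others are said to be chosen after their values were seen. Alternatives were no dim filter, a dim filter on the 2 groups, array weights, a robust eBayes prior with trend, repeated quantile normalization, fitting only the 6 arrays, a replicate block, averaging a gene's probe sets, requiring 2-fold and leaving out arrays. Python 3.11.15, pandas 2.3.3, numpy 2.4.6 and matplotlib 3.10.9 were used.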

Additional observations from a re-analysis of the deposited data

How the results depend on the processing

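The count of calls depended on the processing. Against 8 genes higher and 22 lower, leaving out 1 array gave 0 to 4 higher and 1 to 19 lower, and leaving out tube alone array 1 and lesion control array 3 together, a choice made after seeing the data, gave 0 and 1. Fitting only the 6 arrays gave 133 higher and 130 lower. With array weights there were 683 higher and 1627 lower, with the weight estimation stopping before convergence, and 628 and 1493 with the gene-by-gene estimator, which was added after seeing the data. The weights of tube alone array 1 and lesion control array 3 were 0.468 and 0.845 there, against 1.93 to 2.85 for the other 4 arrays. No dim filter gave 14 higher and 22 lower, and a dim filter on the 2 groups compared 9 and 21. Repeating the quantile normalization gave 8 and 10, and a 2-fold minimum 2 and 1. The cause of these moves was not tested. The replicate numbers were not shown to pair the arrays. Same-numbered deviations correlated at 0.235, 0.062 and 0.096, and those of unlike number between -0.229 and 0.11. The replicate block gave 8 higher and 24 lower, and with only the 6 arrays 17 and 0. The contrast with days 10 and 30, which called 0 genes, called 1 without the dim filter and 2434 with array weights, and the contrast with the caudal segment called 1552 with array weights. Of the genes named, 3 of the neutrophil and erythroid lists changed sign without lesion control array 3: over the fits leaving out 1 array, Camp lay between -1.16 and 0.29, Ahsp between -2.07 and 0.11 and Slc4a1 between -1.12 and 0.33. Without that array and tube alone array 1 they were 0.75, 0.46 and 0.38, and Camp was 0.22 with array weights and 0.19 with the gene-by-gene estimator. Pools of 4 animals and 3 arrays a group limit what differences can be seen: the median SE was 0.119.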

Other observations

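Some genes called in the rostral segment were also high in the gap itself on day 20, where the arrays are of the NT-3 tube and lesion control groups. Ccl17 averaged 10.40 ± 0.11 in the lesion segment of NT-3 tube cords and 8.27 ± 0.35 in that of lesion control cords (SD, n = 3 each), against 6.86 and 8.16 in the rostral segments of the same groups. C6 averaged 10.31 ± 0.50 in the lesion segment of NT-3 tube cords and 7.85 ± 0.18 in that of lesion control cords. Ppic averaged 12.12 and 12.02 there. These differences were not tested here. At RT1-CE10 the lesion segment arrays of NT-3 tube cords averaged 9.90 ± 1.45 on day 20 and ranged from 8.38 to 11.26. Those of lesion control cords averaged 7.32 ± 0.22, and the rostral NT-3 tube arrays 7.62 ± 0.25 (SD, n = 3 each). The part of what sets the RT1-CE10 levels apart in the Ccl17 and C6 values of the gap was not tested. Of the 22 called genes that fell rostrally, 16 had their highest or second highest of 7 rostral lesion control day means on day 20, which describes genes called on that day and was not tested.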
